A study of Mus musculus with 4 samples.

Results

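Ifitm1, Ifitm2 and Ifitm3 were followed in single mouse haematopoietic stem cells (HSCs), where they make up 3 of the 13742 genes counted. They were chosen by name and not by a cut on their values, but with earlier results of these data known. They were read in the 292 of 297 cells that had at least 10000 counts and at least 1000 genes detected. The question was whether these genes vary from cell to cell with other interferon genes or with the genes that mark HSCs.

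The cells came from bone marrow of wild-type mice aged 8 weeks. They were enriched for c-Kit and then sorted one by one as lineage-, Kit+, Sca1+, CD150+, CD48- and CD201+ cells, where CD201 is the endothelial protein C receptor (EPCR). The study set out to compare a CD27- with a CD27+ gate, but the labels of all 4 libraries name both gates and no source used here gives the gate of a cell. The 4 libraries therefore form 1 group of replicates. The labels do not say whether they came from separate mice. Every p-value below weighs a difference between cells of the same library against the spread of that difference over the 4 libraries. That spread may be technical.

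Each library was made by single-cell tagged reverse transcription (STRT-seq), in which every cell gets its own barcode and the 3′ ends of the pooled cDNA are sequenced. The kept cells numbered 74, 75, 71 and 72 in libraries 1 to 4, with 7410956, 8090683, 5250569 and 11207442 counts in all. All 91 cell numbers in use occurred in at least 2 libraries, and 26 occurred in all 4, so libraries share cell numbers and a cell is defined by library and number together. Transcripts of the sort antigens were set beside the gate. Kit averaged 222 ± 17 CPM (counts scaled to a total of 1000000 per library) and Procr, which encodes CD201, 296 ± 48 CPM, while Cd48 had a count in 2 cells (SD, n = 4). Slamf1, which encodes CD150, was low at 58.5 ± 27 CPM. A list of 53 HSC genes summed to 11065 ± 379 CPM. Marker lists of B cells, T and NK cells, macrophages, neutrophils, and mast cells and basophils summed to at most 126 ± 41 CPM. That value is for neutrophils, with 6 of 8 markers in the count table. The lowest, 0.0675 ± 0.13 CPM, is for mast cells and basophils and rests on Cpa3, the 1 of 8 markers counted. These markers were not absent: Cd79b of the B cell list had counts in 109 cells, S100a8 of the neutrophil list in 72 and Klrb1c of the T and NK cell list in 53, while Cd3e, Ms4a1 and Cpa3 had counts in 1 cell each. The myeloid list was higher, at 1764 ± 81 CPM, with Lyz2 in 274 cells and Prtn3 in 256, and the endothelial list, which HSCs share in part, stood at 816 ± 88 CPM. Higher still were the megakaryocyte and platelet list, at 2301 ± 105 CPM, and the erythroid list, at 3120 ± 539 CPM. Car2, at 2692 ± 277 CPM and counted in 292 cells, made up most of the erythroid sum, and Hba-a1 had counts in 102 cells. Their part in the results below was not tested.

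The interferon-induced transmembrane (IFITM) proteins are small membrane proteins that hinder the fusion of many enveloped viruses with the cell. Interferons bind cell-surface receptors, activate JAK kinases and STAT transcription factors, and so switch on a large set of genes through the interferon-stimulated response element (ISRE) and the gamma-activated site (GAS). Stem cells are known to hold some interferon-stimulated genes, IFITM genes among them, at a high level without infection. IFITM3 is best known for blocking viruses that enter through endosomes, IFITM1 sits mainly at the surface of human cells, and IFITM2 is closely related to IFITM3.

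The 3 genes lie together on chromosome 7 within 55934 bases (GRCm38, GENCODE M21 annotation). Ifitm2 spans chr7:140954837-140955987 on the minus strand, Ifitm1 chr7:140967221-140969825 on the plus strand and Ifitm3 chr7:141009586-141010770 on the minus strand. Their promoter windows are shown because interferon acts through short motifs there. The windows are RefSeq sequences (GRCm38.p6 coordinates), each 300 bases long around an annotated start site and written 5′ to 3′ along the gene's strand. Capitals mark matches to the ISRE core, GAAA followed by any 2 bases and GAAA, which was searched on both strands.

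Ifitm1 promoter window, chr7:140967826-140968125, plus strand: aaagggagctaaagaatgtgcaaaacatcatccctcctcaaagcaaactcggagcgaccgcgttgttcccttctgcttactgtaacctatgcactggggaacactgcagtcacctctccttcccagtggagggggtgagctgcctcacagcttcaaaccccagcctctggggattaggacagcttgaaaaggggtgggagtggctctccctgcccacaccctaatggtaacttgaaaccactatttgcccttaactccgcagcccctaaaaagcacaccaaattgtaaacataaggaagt
Ifitm2 promoter window, chr7:140955912-140956211, minus strand: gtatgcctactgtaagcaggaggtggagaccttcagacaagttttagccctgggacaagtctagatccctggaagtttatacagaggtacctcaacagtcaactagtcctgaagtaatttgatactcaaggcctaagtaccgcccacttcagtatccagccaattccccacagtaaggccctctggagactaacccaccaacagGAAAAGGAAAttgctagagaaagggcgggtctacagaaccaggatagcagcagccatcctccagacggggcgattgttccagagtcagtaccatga
Ifitm3 promoter window, chr7:141010695-141010994, minus strand: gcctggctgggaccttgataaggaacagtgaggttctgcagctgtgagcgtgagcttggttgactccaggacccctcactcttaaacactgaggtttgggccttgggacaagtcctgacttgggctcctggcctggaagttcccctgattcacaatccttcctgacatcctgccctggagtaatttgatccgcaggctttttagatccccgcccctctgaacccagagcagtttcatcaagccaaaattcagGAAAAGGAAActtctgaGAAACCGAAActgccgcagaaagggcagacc

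The Ifitm2 window held 1 ISRE match, which starts 46 bases before the start site. The Ifitm3 window held 2, at positions 3 and 20 after the start site, and also the GAS core TTCNNNGAA, searched likewise, at position 14, which overlaps the start of the later ISRE match and not the earlier one. The Ifitm1 window held neither core. It is drawn around a start site at position 140968076, downstream of the outermost annotated start of the gene, so it covers only part of the gene's possible promoter. An ISRE match occurred in 3.44% of the 32851 windows searched and a GAS match in 8.30%. Counted by gene, with a match in any window of the gene, the shares were 3.99% and 9.55% of 27025 genes. Among genes with a window, the ISRE core was found in 11 of 18 genes of an interferon-γ list, 27 of 54 genes of a type I interferon list and 2 of 40 HSC genes. A match describes letters only and was not read as a bound site.

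All 3 genes were abundant and were counted in nearly every cell. Ifitm1 stood at 2969, 3402, 2929 and 3336 CPM in libraries 1 to 4, a mean of 3159 ± 244 CPM and rank 35 of 13742 genes. Ifitm3 stood at 1862, 2057, 1831 and 1678 CPM, a mean of 1857 ± 156 CPM and rank 71. Ifitm2 stood at 1166, 1304, 1152 and 1256 CPM, a mean of 1219 ± 73 CPM and rank 104. The libraries' ranges for the 3 genes did not overlap, so the order in CPM was the same in each library.

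Per kilobase of exon, the order of Ifitm1 and Ifitm3 was not settled. Ifitm1 averaged 2888 ± 223 CPM per kilobase, Ifitm3 2739 ± 230 and Ifitm2 1861 ± 111 (SD, n = 4), and Ifitm3 was above Ifitm1 in libraries 1 and 3 on this scale. Only Ifitm2 stood below the others beyond the spread between libraries. Reads from 3′-enriched libraries need not scale with length, so the level per kilobase is itself approximate. The Ifitm2 level carries a further doubt: 34.9% of the 100-base stretches of its transcript also occur in Gm45717, Gm11951 or Gm8865, and Gm45717 overlaps its exons, so reads could have been lost or shared. No such stretch of Ifitm1 or Ifitm3 occurred in another gene.

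The share of cells with a count was 292 of 292 for Ifitm1 and for Ifitm3 and 290 of 292 for Ifitm2. In library 3, the smallest, the exact (Clopper-Pearson) 95% interval for 71 of 71 cells with Ifitm3 starts at 94.9%, and the interval for 70 of 71 cells with Ifitm2 runs from 92.4% to 99.96%. These intervals cover counting error only. Other family members were rare: Ifitm7 had counts in 32 cells and averaged 20.0 ± 11 CPM, and Ifitm5, a bone-forming cell gene, had counts in 5 cells.

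The high level was not shared by the rest of the locus. Within 100000 bases of the 3 genes, 24 genes are annotated and 12 are in the count table. The most abundant neighbours were Sirt3, a mitochondrial deacetylase, at 120 ± 10 CPM, Sigirr, a brake on interleukin-1 receptor signalling, at 107 ± 24 CPM, and Ric8a, a chaperone of G protein alpha subunits, at 102 ± 16 CPM.

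Libraries resembled each other more in Ifitm level than in most genes above 100 CPM. The coefficient of variation (CV) between libraries was 7.73% for Ifitm1, 5.98% for Ifitm2 and 8.40% for Ifitm3, against a median of 13.0% over the 1930 genes above 100 CPM. Most of those genes were less abundant than the Ifitm genes, and this comparison was not matched for level. Of the summed Ifitm level, 6235 ± 384 CPM, Ifitm1 supplied 50.6 ± 1.7%, Ifitm3 29.8 ± 2.0% and Ifitm2 19.6 ± 0.33%.

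**Figure D1:**
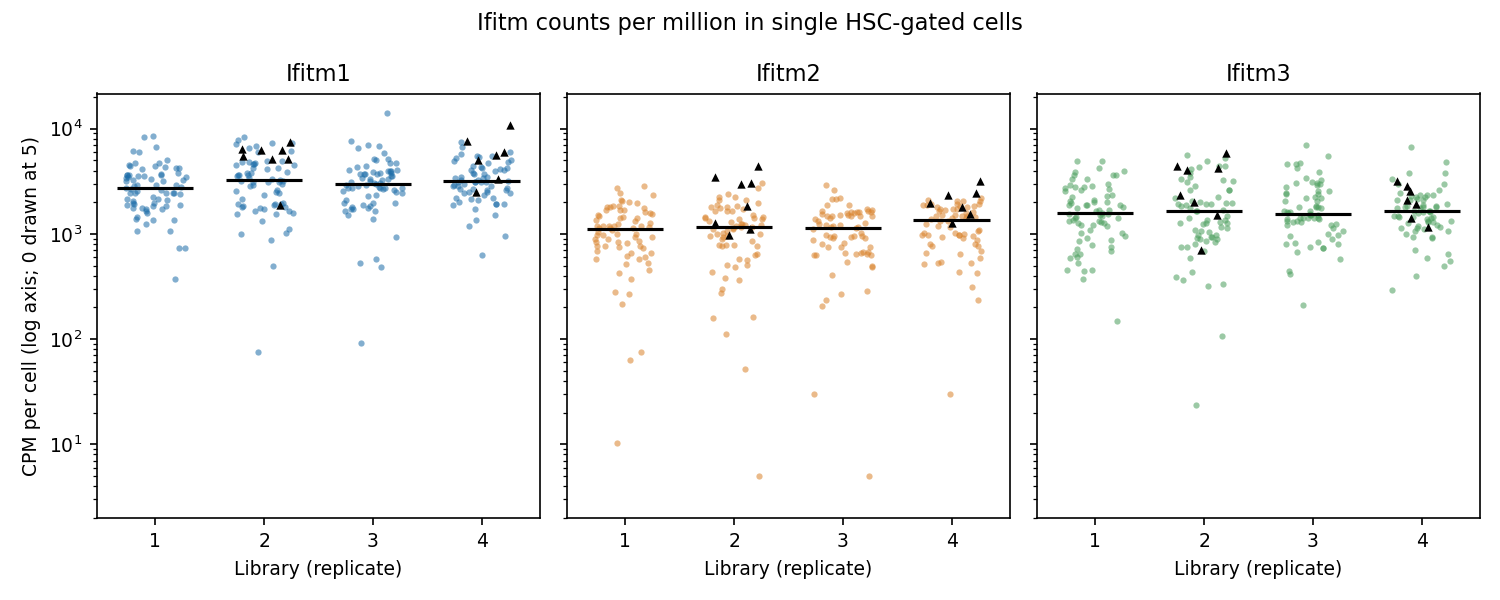
CPM of Ifitm1, Ifitm2 and Ifitm3 in each of the 292 cells by library, on a log axis with 0 drawn at 5; black lines are medians and black triangles are the 15 cells of 2 runs of neighbouring cell numbers described below. Medians lie close together across libraries, while cells of 1 library spread over more than a 10-fold range.

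Between cells the levels differed widely. Ifitm1 ran from 74.6 to 8348 CPM over the cells of library 2, with a median of 3248 CPM, and Ifitm3 from 23.8 to 5912 CPM around a median of 1634 CPM. The 90th percentile of cells lay 2.93 to 4.25 times above the 10th for Ifitm1, 3.63 to 6.07 times for Ifitm2 and 3.21 to 6.89 times for Ifitm3, depending on the library. For comparisons between cells of unequal depth, 30000 counts were drawn at random from every cell that had them, 276 in all.

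After thinning, the cell-to-cell CV was 56.0 ± 5.6% for Ifitm1, 51.8 ± 5.5% for Ifitm2 and 64.7 ± 8.3% for Ifitm3 (SD, n = 4). Counting error alone would give 9.94%, 16.5% and 13.3% at these levels, but reads may include PCR copies. Ifitm1 and Ifitm3 were more variable than most genes of like abundance: 66 of 74 genes within 2-fold of the Ifitm1 level had a lower CV (median 41.2%), and so did 88 of 104 genes near Ifitm3 (median 48.0%). Ifitm2 was not, with 42 of 150 genes lower (median 63.5%).

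The members varied together only loosely. Ifitm1 and Ifitm3 had a Spearman rho of 0.43, 0.19, 0.14 and 0.27 across the cells of libraries 1 to 4, a mean of 0.26 ± 0.12. Ranked against the 5300 other genes counted in at least 20% of cells, Ifitm3 came 3rd for Ifitm1, and Ifitm1 came 2nd for Ifitm3. Ifitm1 and Ifitm2 had rho values of 0.15, 0.33, -0.11 and 0.30, a mean of 0.17 ± 0.20. Ifitm2 and Ifitm3 had 0.08, 0.22, 0.15 and 0.12, a mean of 0.14 ± 0.059. Pairs with Ifitm3 were positive in every library; Ifitm1 with Ifitm2 was negative in library 3, and its mean was 0.26 without that library. All rho values are descriptions of cells that share a library, a depth and a scaling, and carry no p-value.

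Of the 3 genes, Ifitm3 followed interferon genes most closely. An interferon-γ list of 28 genes holds the immunity-related GTPases and guanylate-binding proteins, which attack the vacuoles of intracellular microbes, together with other targets such as Irf1, Psme1, Psme2, Ly6a, Ly6e and Serpina3g. The rho of Ifitm3 with the summed CPM of this list was 0.32, 0.48, 0.48 and 0.50 in libraries 1 to 4, a mean of 0.44 ± 0.087. Ifitm1 had 0.27, 0.06, 0.28 and 0.21, a mean of 0.20 ± 0.10. Ifitm2 had 0.26, 0.22, 0.11 and 0.17, a mean of 0.19 ± 0.063. The lowest Ifitm3 value was above the highest value of either other gene. Given total counts and genes detected before thinning, the mean partial rho of Ifitm3 was 0.44. Without the runs of cells described below, its mean unadjusted rho was 0.43. Most of the list's 5303 CPM came from Serpina3g (1113 CPM), Ly6e (959), Ly6a (680) and Psme1 (506), so the sum follows these genes most. With each list gene weighted alike, as a mean of z scores, the Ifitm3 mean was 0.34 ± 0.18.

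The HSC list behaved differently. Its rho with Ifitm3 was 0.01, -0.22, 0.26 and 0.20, a mean of 0.06 ± 0.22 (0.16 without library 2 and -0.0035 without library 3), and with Ifitm2 it was -0.08, -0.12, 0.01 and -0.05, a mean of -0.06 ± 0.052. With Ifitm1 it was 0.08, 0.14, 0.44 and -0.03, a mean of 0.16 ± 0.20, and library 3 stands well above the others; without it the mean was 0.06. The rho with the interferon-γ list exceeded that with the HSC list in 4 of 4 libraries for Ifitm3, by 0.38 ± 0.21, and in 4 of 4 for Ifitm2, by 0.25 ± 0.11. For Ifitm1 it did so in 2 of 4 libraries, with a mean difference of 0.05 ± 0.20, which is within the spread.

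The list of 70 type I interferon genes was less steady between libraries. Ifitm3 had a rho of 0.13, 0.50, 0.39 and -0.05 with its summed CPM, a mean of 0.24 ± 0.25 that dropped to 0.15 without library 2. Ifitm1 averaged 0.15 ± 0.12 and Ifitm2 0.10 ± 0.073, both above 0 in 4 of 4 libraries, and the Ifitm2 mean was 0.05 without the runs of cells described below. The rho with the type I list exceeded that with the HSC list in 4 of 4 libraries for Ifitm2, by 0.16 ± 0.098. For Ifitm3 it did so in 3 of 4, by 0.18 ± 0.40, with -0.25 in library 4. For Ifitm1 it did so in 1 of 4, with a mean difference of -0.0034 ± 0.16. With the summed CPM of 20 genes of MHC class I antigen presentation, the means were 0.32 ± 0.061 for Ifitm3, 0.24 ± 0.042 for Ifitm1 and 0.18 ± 0.037 for Ifitm2. These were again above 0 in all 4 libraries for each Ifitm gene. That list is carried by B2m, the light chain of MHC class I, at 11293 of its 22912 CPM. Gene by gene, the median rho of the list was 0.06 for Ifitm3, -0.01 for Ifitm1 and -0.002 for Ifitm2. The mean rho was above 0 for 14, 9 and 9 of the 20 genes (70%, 45% and 45%). Over all genes these shares were 41.5%, 29.7% and 46.1%.

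**Figure D2:**
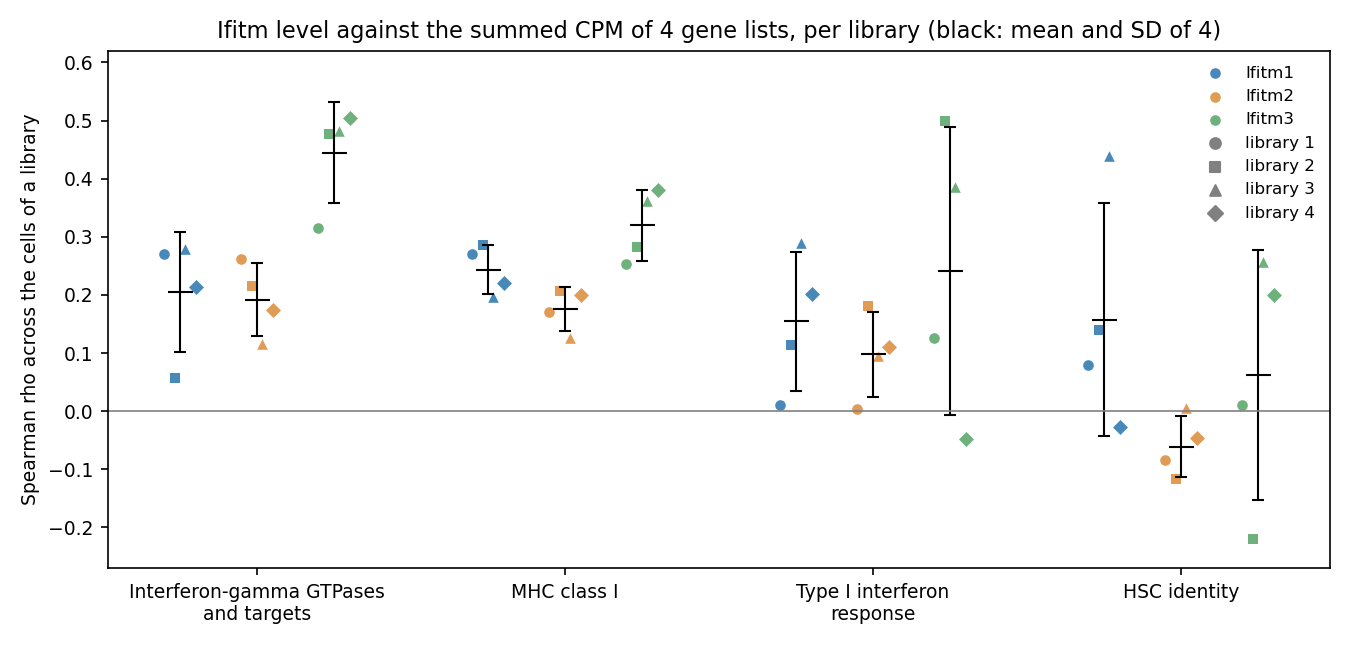
Spearman rho between each Ifitm gene and the summed CPM of 4 gene lists across the cells of each library; symbols are libraries, black bars the mean and SD of 4. Ifitm3 with the interferon-γ list sits at 0.32 to 0.50, above every Ifitm1 and Ifitm2 value with that list. Values with the HSC list lie on both sides of 0, from -0.22 (Ifitm3, library 2) to 0.44 (Ifitm1, library 3).

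Single genes gave the same picture for Ifitm3. Of the 19 interferon-γ genes counted in enough cells, all 19 had a mean rho above 0 with Ifitm3, 12 (63.2%) were positive in all 4 libraries and 14 were among its 100 most similar genes. Over all 5300 genes, 41.5% had a mean rho above 0 and 5.0% were positive in all 4 libraries. The list's median rho was 0.16, against -0.01 over all genes. Tgtp1 and Ifi47, both interferon-inducible GTPases, had mean rho values of 0.26 ± 0.14 and 0.24 ± 0.17. Ly6a, which encodes the sort antigen Sca1, had 0.25 ± 0.089. Irf1, a transcription factor of the pathway, had 0.05 and was positive in 3 libraries.

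Other genes of the pathway followed Ifitm3 less. Of 41 type I interferon genes 8 (19.5%) were positive in all 4 libraries, with a median of 0.06; Bst2, which tethers budding viruses, reached 0.22 and Uba7, the activating enzyme for ISG15, 0.19. Of 12 genes for interferon receptors and their signalling 1 was positive in all 4, and the median was 0.001. Of 47 HSC genes 5 (10.6%) were positive in all 4, with a median of 0.001. The 8 most abundant of them went both ways: Gimap6 had a mean rho of 0.17, Pdzk1ip1 0.11, Mllt3 0.08, Cd81 0.07 and Myct1 0.03, against -0.07 for Gimap1, -0.10 for Lmo2 and -0.16 for Meis1.

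For Ifitm1 and Ifitm2 the interferon-γ list stood out less. With Ifitm1, 17 of 19 genes had a mean rho above 0 and 4 (21.1%) were positive in all 4 libraries, against 29.7% and 3.66% over all genes. With Ifitm2 the counts were 15 and 5 (26.3%), against 46.1% and 6.36%. Median rho was 0.07 for both, against -0.04 over all genes for Ifitm1 and -0.007 for Ifitm2. HSC genes positive in all 4 libraries numbered 7 of 47 (14.9%) for Ifitm1 and 4 of 47 (8.51%) for Ifitm2; Gimap6, a GTPase of immune cells, reached 0.24 with Ifitm1.

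**Figure D3:**
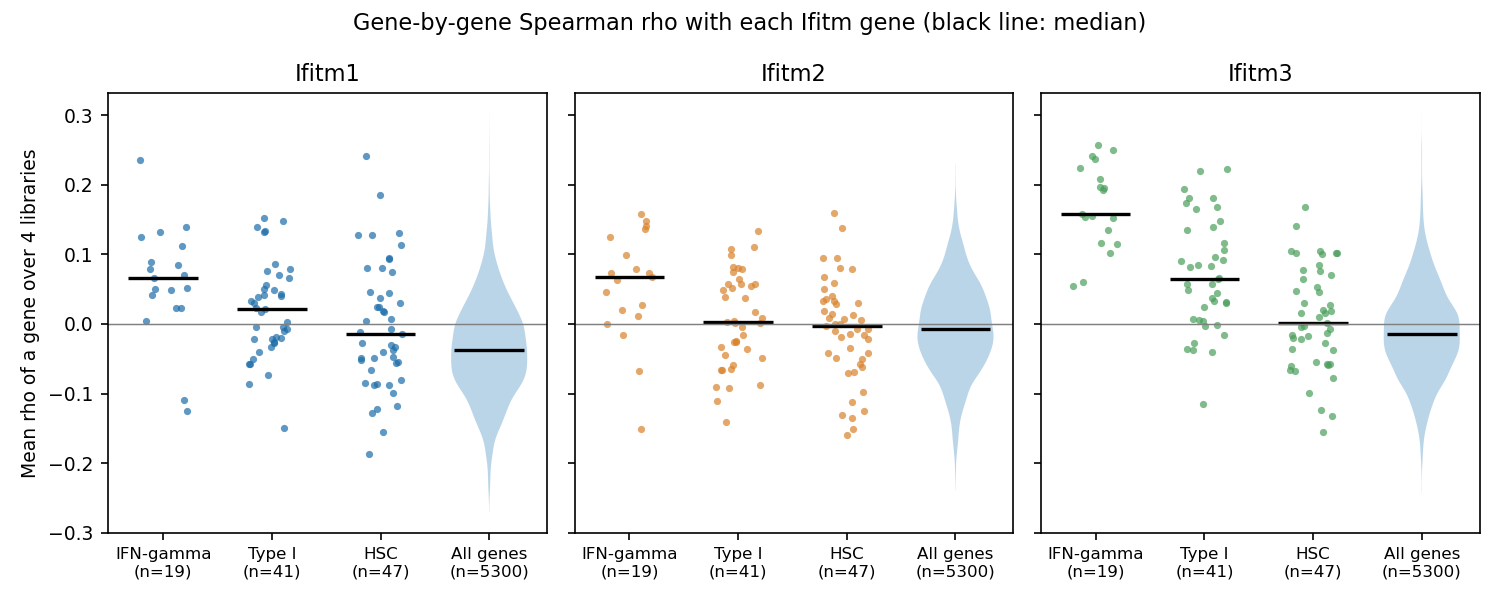
Mean Spearman rho over 4 libraries of each gene with Ifitm1, Ifitm2 or Ifitm3, for 19 interferon-γ, 41 type I interferon and 47 HSC genes (points) and all 5300 genes (shaded distribution); black lines are medians. All 19 interferon-γ genes lie above 0 for Ifitm3, while the HSC medians lie at or near those of all genes.

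B2m was the gene most like both Ifitm1 and Ifitm3. Its rho with Ifitm1 was 0.31, 0.30, 0.27 and 0.33, a mean of 0.30 ± 0.027, and with Ifitm3 it was 0.27, 0.23, 0.32 and 0.40, a mean of 0.30 ± 0.074. Among genes with the same sign in all 4 libraries, those next most like Ifitm1 included Rpl37a (0.27), Ifitm3, Gimap6, Tonsl (0.24), Serpina3g (0.24) and Gstm1 (0.21). For Ifitm3 they were Ifitm1, Tgtp1, Rdh12 (0.26), Ly6a, Nfkb2 (0.25), Tmem176b (0.25) and Ifi47. For Ifitm2 they were Stt3a (0.23), Tuba1b (0.23), Tufm (0.22), Prr13 (0.20), Cnbp (0.20), Psmb9 (0.18), Hsp90ab1 (0.18) and Gng11 (0.18), of which only Psmb9, an immunoproteasome subunit, is in an interferon or antigen presentation list used here.

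The least similar genes were of other kinds. For Ifitm1 they were Ywhah (-0.27), Pbrm1 (-0.25), Gpx1 (-0.25), Tomm20 (-0.25) and Mta2 (-0.24). For Ifitm3 they were Ctla2a (-0.24), Srrm2 (-0.24), Acap1 (-0.23), Ocel1 (-0.21) and Ubr4 (-0.21). For Ifitm2 they were Mrto4 (-0.24), Rnps1 (-0.23), Vps13b (-0.22), Gm10800 (-0.22) and Pim1 (-0.22). None of these correlations is large, and they were picked as extremes from 5300.

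Depth moved with Ifitm1 more than with the others. Ifitm1 had a mean rho of -0.29 ± 0.16 with the number of genes detected after thinning and -0.21 ± 0.14 with total counts, against -0.11 ± 0.13 and 0.02 ± 0.16 for Ifitm3 and -0.10 ± 0.080 and 0.06 ± 0.12 for Ifitm2. The partial rho of Ifitm1 given total counts and genes detected before thinning was 0.17 with the interferon-γ list and 0.20 with B2m. With the HSC list it was 0.08, against 0.16 before this adjustment. The number of genes detected after thinning was not adjusted for.

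A direct test compared cells above and below the median of each Ifitm gene. Within each library the cells were divided at the median, 145 high and 147 low cells in all, the raw counts of each set were summed, and edgeR's quasi-likelihood test compared the 4 high with the 4 low sums with library as a block. P-values were adjusted by Benjamini-Hochberg over 5300 genes, and the threshold was 0.05.

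Ifitm1-high cells had more RNA of 3 genes and less of 1. The 3 higher genes are 0.0566% of those tested, the 1 lower gene 0.0189% and both together 0.0755%. Serpina3g, a serine protease inhibitor of the serpin family, had 1719, 1796, 1330 and 1199 CPM in Ifitm1-high cells of libraries 1 to 4, against 749, 868, 893 and 643 CPM in Ifitm1-low cells. The sets did not overlap, and the log2 fold change was 0.96 ± 0.11 (SE, edgeR adjusted p = 9.99e-05). Serpina3g belongs to a family of near-identical copies, so its reads could have been divided among them.

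Ifitm3 was also higher in Ifitm1-high cells. It had 2342, 2596, 2201 and 1803 CPM there, against 1411, 1654, 1572 and 1586 CPM in Ifitm1-low cells, again with no overlap. The log2 fold change was 0.54 ± 0.090 (SE, edgeR adjusted p = 0.0108). B2m had 11966, 14257, 12298 and 11581 CPM in Ifitm1-high cells, against 10172, 10425, 10860 and 9984 CPM in Ifitm1-low cells, a difference of 0.30 ± 0.049 on the log2 scale (SE, edgeR adjusted p = 0.0108). Ifitm2 was higher in 4 of 4 libraries, by 0.24 ± 0.093 on the log2 scale, but did not pass (SE, edgeR adjusted p = 0.493).

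Tipin was the lower gene. The protein accompanies the replication fork. It had 58.5, 15.9, 29.1 and 29.8 CPM in Ifitm1-high cells, against 117, 93.4, 226 and 94.5 CPM in Ifitm1-low cells, a log2 fold change of -2.0 ± 0.36 (SE, edgeR adjusted p = 0.0243). Library 3 holds the highest low-cell value. Without library 3 the adjusted p of Tipin was 0.322. Without library 2 that of Ifitm3 and of Tipin was 0.149 and that of B2m 0.109, and without library 1 that of Ifitm3 was 0.0800. Only Serpina3g kept its call whichever library was left out, with adjusted p-values up to 0.00579.

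Cell cycle lists had medians below 0 between Ifitm1-high and Ifitm1-low cells, and 0 of their genes passed. Of 12 S phase genes 0 had a log2 fold change above 0 and 5 (41.7%) were lower in all 4 libraries, against 7.26% of all genes, with a median of -0.65. Of 4 G2/M genes 3 were lower in all 4 libraries, with a median of -1.07. Between Ifitm3-high and Ifitm3-low cells the medians were -0.31 for S phase and -0.73 for G2/M genes. There 0 of 12 and 0 of 4 were above 0, against 48.3% of all genes. Fewer were lower in all 4 libraries: 2 of 12 (16.7%) and 1 of 4 (25%), against 6.42% of all genes.

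The Ifitm1-high cells also differed in depth. They had a median of 92020 counts and 2814 genes (means over 4 libraries), against 112400 counts and 3115 genes in Ifitm1-low cells. With every cell first thinned to 30000 counts, Serpina3g alone passed.

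**Figure D4:**
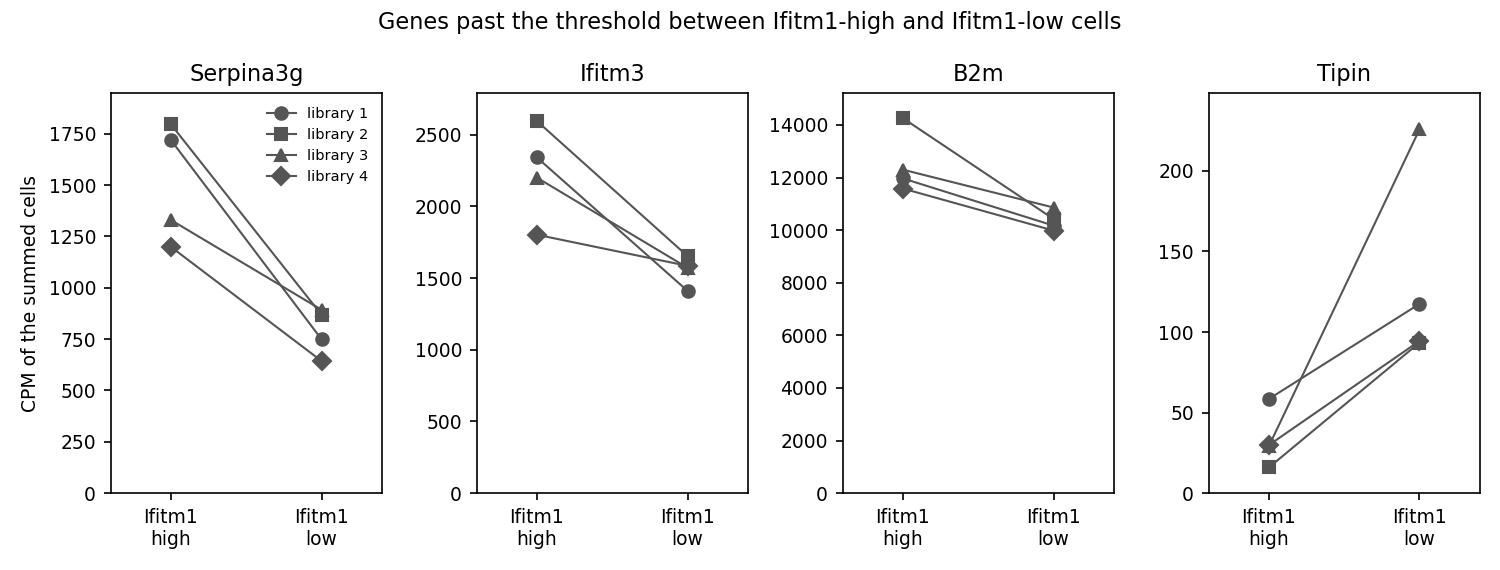
CPM of the 4 genes that passed the test, in the summed Ifitm1-high (left) and Ifitm1-low (right) cells of each library, joined by a line per library. Serpina3g, Ifitm3 and B2m are higher and Tipin is lower in the Ifitm1-high cells of all 4 libraries.

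No gene passed between Ifitm3-high and Ifitm3-low cells, nor between Ifitm2-high and Ifitm2-low cells (0% called by edgeR in each). At an unadjusted p under 0.05 there were 268 of 5300 genes (5.06%) for Ifitm3 and 324 (6.11%) for Ifitm2, and DESeq2 called 15 and 10. The lowest adjusted p was 0.128 for Ifitm3, reached by 2 genes. Serpina3g, 1 of them, had 1684, 1535, 1361 and 1008 CPM in Ifitm3-high cells, against 759, 942, 818 and 799 CPM in Ifitm3-low cells. The sets did not overlap, and the log2 fold change was 0.73 ± 0.12 (SE).

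Ifitm1 was higher in Ifitm3-high cells of 4 of 4 libraries, by 0.38 ± 0.074 on the log2 scale (SE, edgeR adjusted p = 0.233). Psme2, an activator subunit of the proteasome, had 277, 328, 226 and 274 CPM in Ifitm3-high cells, against 159, 134, 135 and 176 CPM in Ifitm3-low cells, with an adjusted p of 0.292 by edgeR. Neither passed by edgeR.

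As a list, the interferon-γ genes nevertheless had the higher medians. Between Ifitm3-high and Ifitm3-low cells their median log2 fold change was 0.62, against -0.01 over all genes; 18 of 19 were above 0, 9 (47.4%) were higher in all 4 libraries, against 6.72% of all genes, and 0 passed. Between Ifitm1-high and Ifitm1-low cells the median was 0.50 and 11 of 19 (57.9%) were higher in all 4 libraries, against 8.34% of all genes; 1, Serpina3g, passed. Ly6e, known to alter virus entry, had 0.49 ± 0.10 (SE, edgeR adjusted p = 0.0902) and Ly6a 0.50 ± 0.13 (SE, edgeR adjusted p = 0.208). For Ifitm2 the median was 0.17, with 3 of 19 (15.8%) higher in all 4 libraries against 6.43% of all genes.

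Type I interferon genes had medians of 0.32 for Ifitm3, 0.27 for Ifitm1 and -0.05 for Ifitm2, and 0 of 41 passed in each. The 47 HSC genes had medians of 0.07, 0.13 and 0.01 for Ifitm3, Ifitm1 and Ifitm2, and 0 passed. For Ifitm1, 11 of the 47 HSC genes (23.4%) were higher in all 4 libraries, against 8.34% of all genes, and 34 (72.3%) were above 0, against 49.7%. For Ifitm3 2 (4.26%) and for Ifitm2 1 (2.13%) were higher in all 4 libraries, against 6.72% and 6.43% of all genes. Gimap6 came nearest to the threshold, at 1172 CPM on average in Ifitm1-high and 809 CPM in Ifitm1-low cells (log2 fold change 0.54 ± 0.11, SE, edgeR adjusted p = 0.0902).

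A pair of runs of neighbouring cell numbers stood apart from the other cells of their libraries. In library 2 the 8 cells numbered 26 to 33, and in library 4 the 7 kept cells numbered 9 to 16, correlated with each other across genes (mean r of 0.18 and 0.23, against at most 0.0081 in any other stretch). Cells were sorted into strips of tubes, and whether these stretches are strips is not given. Ifitm1 averaged 5515 CPM in the run cells of library 2, against 3367 CPM in its other cells, and 5870 CPM in those of library 4, against 3326 CPM. Ifitm2 averaged 2393 CPM in the run of library 2 against 1158 CPM in the rest, and 2071 CPM against 1235 CPM in library 4. Ifitm3 averaged 3142 CPM in the run against 1847 CPM in library 2, and 2172 CPM against 1769 CPM in library 4. Depth differed as well. The run cells of library 2 had 10653 to 78655 counts each, all below the library median of 99569. Those of library 4 had 21587 to 151830, most of them below the median of 142675. The part of depth in the levels of the run cells was not tested.

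The interferon-γ list was likewise higher in both runs, at 12905 CPM in the run and 6017 CPM in the rest of library 2, and at 8392 CPM in the run and 4489 CPM in the rest of library 4. Immediate early genes, which cells switch on quickly when stimulated or handled, were lower, at 9314 CPM in the run against 25910 CPM in library 2 and at 8117 CPM against 23333 CPM in library 4. The HSC list differed little, at 10903 and 11865 CPM in the runs and 11803 and 11544 CPM in the rest. No test was made, because the runs were found by inspection of these cells.

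The 15 run cells fell mostly on the high side: 13 were Ifitm1-high, 12 Ifitm2-high and 11 Ifitm3-high. Their part in each result was measured by leaving them out. The 4 genes called between Ifitm1-high and Ifitm1-low cells were still called, with Serpina3g at a log2 fold change of 0.79 (edgeR adjusted p = 0.00083) and B2m at 0.20 (edgeR adjusted p = 0.0356). The median of the interferon-γ genes was then 0.40 for Ifitm1 and 0.61 for Ifitm3. Outside the runs, cells with adjacent numbers did not resemble each other much in Ifitm rank, with rho values of -0.11 for Ifitm1, 0.11 for Ifitm2 and 0.04 for Ifitm3 over 231 pairs.

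**Figure D5:**
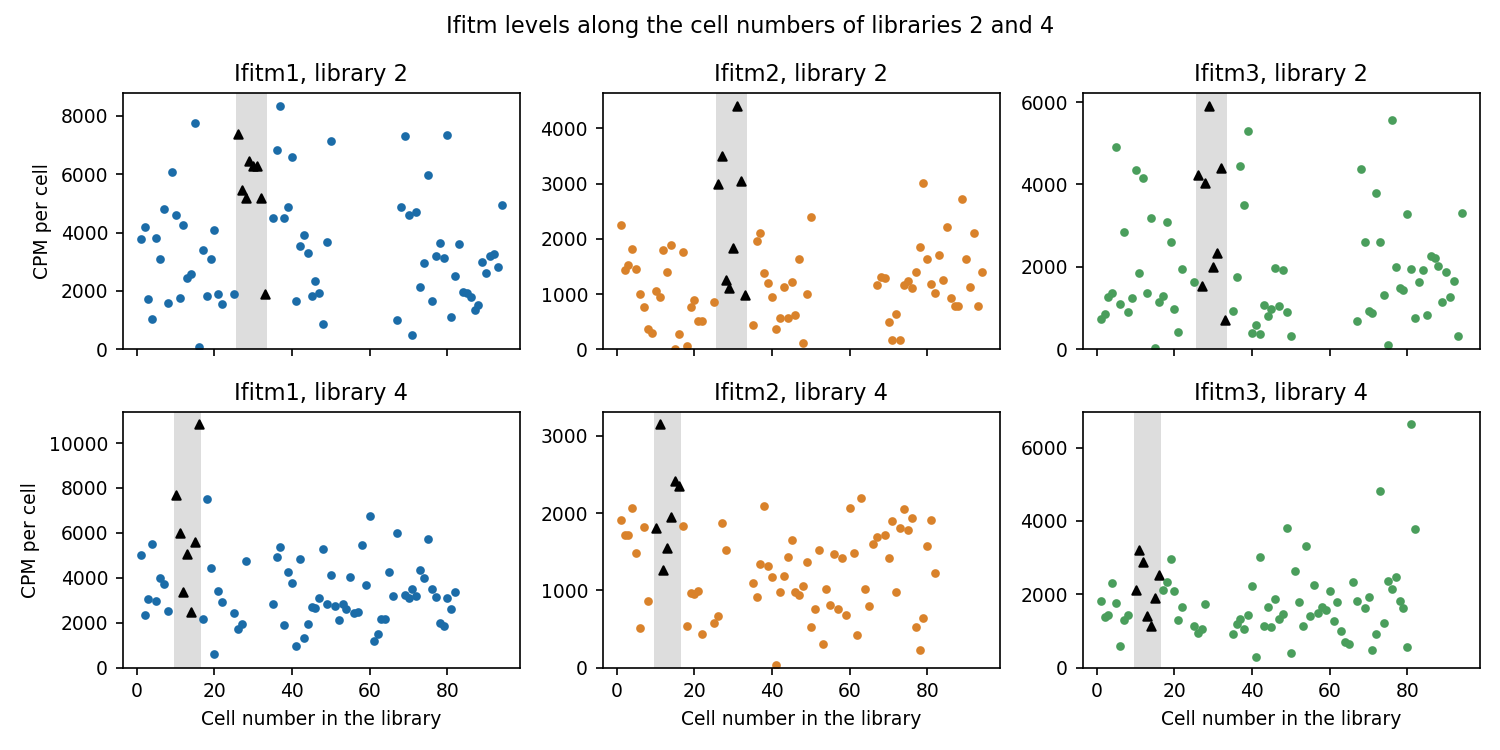
CPM of Ifitm1, Ifitm2 and Ifitm3 against cell number in libraries 2 and 4; grey bands and black triangles mark the runs of 8 and 7 cells. Ifitm1 and Ifitm2 average higher within the bands than in the rest of the library, and Ifitm3 does so more in library 2 than in library 4. Single cells of the bands overlap with the rest.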

How the data were processed

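Single HSCs were profiled in 4 STRT-seq libraries. The authors deposited unnormalized counts, whole numbers for each gene in each cell. Per the submitters' processing notes, tools were HTSeq 0.9.1, HISAT2 2.1.0 and Trimmomatic 0.36, with build GRCm38. The annotation and any use of molecular identifiers are not given in the sources used here, so counts may include PCR copies. Cells with under 10000 counts or 1000 genes were left out (5 of 297); doublets were not called. Library levels in CPM used the summed counts of the kept cells. Rank correlations and CVs used cells thinned to 30000 counts (seed 11), which leaves out 16 cells; those shallower cells stay in levels and tests. Sums of high and low cells were tested with edgeR 4.0.16 in R 4.3.3 on genes counted in at least 20% of cells, without the dividing gene; DESeq2 1.42.0 was an alternative. Both scripts were tested on simulated data. The genes, lists and tests were chosen with earlier results of these data known, and the rule that finds runs (8 consecutive numbers, at least 6 kept cells, mean correlation of non-adjacent cells above 0.1) was set after inspecting the data and tried in several forms. High and low sums of a library share its cells' preparation and are paired by library. Named genes are the Ifitm genes and their neighbours, up to 10 called genes in each direction per comparison, the 8 most abundant members of each of 5 lists, and per Ifitm gene the 8 most and 5 least similar genes with 1 sign in 4 libraries. Sort antigens and mature-cell markers are named to check the cells. Some genes that the rule takes are not reported here.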

Additional observations from a re-analysis of the deposited data

Results flagged for a closer look

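Of 33 sets of 4 library values that were checked for a value far from the others, 1 was singled out, and chance singles out about 1 in 20. The rho of Ifitm3 with the interferon-γ list was 0.316 in library 1, against 0.477, 0.482 and 0.504 in libraries 2, 3 and 4. The gap to the nearest library was 0.856 of the range, above Dixon's 95% limit for 4 values. Without library 1 the mean was 0.488, and the cause of the gap was not tested.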

How the results depend on the processing

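Levels, between-cell CV and correlations kept their direction under nearly all alternatives. Requiring 3 counts gave shares of 99.65% for Ifitm1 and 99.67% for Ifitm3, and thinning to 10000 counts gave an Ifitm2 CV of 60.8%. The rho between Ifitm2 and Ifitm3 was 0.0445 at 10000 counts and 0.214 as a Pearson r of log2(CPM + 10); that of Ifitm2 with the interferon-γ list was 0.106 as a Pearson r. With mean z scores, which weight each list gene alike, Ifitm3 had 0.342 with the interferon-γ list, and Ifitm1 turned to -0.0494 with the HSC list. Ifitm2 had -0.114 with the HSC list in counts as deposited and -0.119 at 10000 counts. Of 765 alternative rho values of named genes 734 lay within 1 SD of the value reported.

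The number of genes called depended on the method, and the cause was not tested. For Ifitm1, with 4 called, DESeq2 called 43, no filter 27, thinned counts 1, the upper against the lower tercile of cells 2, genes counted in 5% of cells 2 and omitting the runs 5. For Ifitm2, with 0, DESeq2 called 10, thinned counts 2 and no filter 1. For Ifitm3, with 0, DESeq2 called 15, thinned counts 3, terciles 3, the 5% filter 1, no filter 6 and omitting the runs 2. Without the library as replicate block, 4, 0 and 2 genes were called for Ifitm1, Ifitm2 and Ifitm3. Serpina3g passed between Ifitm3-high and Ifitm3-low cells under 6 of these settings. Leaving out 1 library gave 1 to 8, 0 to 3 and 0 to 1 calls.

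Genes near 0 changed sign. Leaving out 1 library, the log2 fold change of Psme1 ran from -0.099 to 0.017 between Ifitm1-high and Ifitm1-low cells. Between Ifitm2-high and Ifitm2-low cells it ran from -0.13 to 0.11, and was 0.071 with terciles, 0.031 with the 5% filter and 0.028 with no filter. There Ly6a ran from -0.031 to 0.17 and Iigp1 from -0.33 to 0.22, and Irf1 was -0.31 with thinned counts. Between Ifitm3-high and Ifitm3-low cells Irf1 ran from -0.37 to 0.053 and was 0.058 with thinned counts. Leaving out 1 library, rho between Ifitm1 and Ifitm2 ran from 0.111 to 0.258, and rho of Ifitm3 ran from 0.425 to 0.488 with the interferon-γ list, from 0.155 to 0.337 with the type I list and from -0.0035 to 0.156 with the HSC list. The 4 libraries, 276 thinned cells and sparse counts of low genes limit all of these values.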
